A study of Drosophila melanogaster with 3 samples.

Results

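The regions described here are 1365 places in the genome of Drosophila melanogaster embryos where tagged az2 protein gave a weak ChIP-seq peak (chromatin immunoprecipitation followed by sequencing) that stood in all 3 replicates, but that the authors' final list left out. The final list was made with the irreproducible discovery rate (IDR), a method built on how peak ranks repeat between replicates, and its peaks are the IDR peaks below. In the files it is the 21.3% of pooled peaks with the highest pooled signal, and ranks of its peaks in replicate 1 reach 28756, so a kept peak need not have a high rank in each replicate. The 1365 regions, called the members, were selected on measured values by a rule with 2 conditions. A peak called on the pooled reads had to overlap no IDR peak, and its summit, the base of highest signal, had to lie in a peak of each replicate's relaxed list when that list was kept at its highest signals, to a length of 2 times the IDR list. The members are 5.03% of the 27145 pooled peaks and 6.73% of the 20278 pooled peaks that overlap no IDR peak. The other 18913 of these are called the other sub-threshold peaks, and 1081 further pooled peaks below the threshold overlapped an IDR peak and were set aside.

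The study has 1 group, 3 biological replicates of 0 to 16 hour embryos of both sexes, from a transgenic line that stably expresses az2 with green fluorescent protein (GFP) fused to its C-terminal end. The chromatin was sheared by sonication, with a size range of 200 to 800 bp, and pulled down with an antibody against GFP. Every comparison below is therefore between kinds of peaks in the same embryos, and none is between conditions. Whole embryos mix all cell types, so a weak peak in every cell and a strong peak in a few cells cannot be told apart. Embryos without the tag are not analysed here. The lists hold no reads, so the depth behind each peak is unknown.

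As background, a ChIP-seq signal grows with the share of cells and time in which a protein lies on a site, and peaks fade into noise with no gap between them. An IDR threshold is a place on that slope, and peaks just under it can hold real sites, indirect contacts and open chromatin that comes down with any antibody. Zinc finger proteins such as az2 bind DNA through short letter patterns. In flies the promoters of broadly used genes often carry the DNA replication-related element (DRE), which the factor DREF binds, and developmental genes more often carry a TATA box.

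The letter patterns were looked for within 100 bp of each summit on both strands. Among 20 words of 8 bases that had been ranked on the IDR peaks of a part of the genome, 4 held the letters CACTG or their reverse complement. The first 8 lines show the members of best rank that carry one of the 3 such words that passed the test below, and the last 3 lines show members of high rank with a DRE near a transcription start site (TSS). Capitals mark the word or the DRE. Each is read 5' to 3' from the RefSeq genome of build dm6, turned so that the CACTG letters read forward, and windows with bases of untranslated regions were passed over.
Fhos intron (chr3L:8768177-8768237, plus strand): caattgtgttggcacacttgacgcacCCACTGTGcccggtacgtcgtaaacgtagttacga
alpha-Man-Ia intron (chrX:10320730-10320790, plus strand): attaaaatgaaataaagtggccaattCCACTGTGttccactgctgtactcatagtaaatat
hth intron (chr3R:10626243-10626303, plus strand): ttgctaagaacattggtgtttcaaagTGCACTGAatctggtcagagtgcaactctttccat
near the start of CG13840 (chr3R:22816672-22816732, plus strand): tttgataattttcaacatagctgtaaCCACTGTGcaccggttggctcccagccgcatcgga
intergenic, nearest start CG31928 (chr2L:1470205-1470265, plus strand): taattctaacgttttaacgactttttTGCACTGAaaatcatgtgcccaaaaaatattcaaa
Pli intron (chr3R:23874460-23874520, minus strand): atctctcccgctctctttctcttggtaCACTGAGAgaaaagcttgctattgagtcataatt
Dif intron (chr2L:17421332-17421392, plus strand): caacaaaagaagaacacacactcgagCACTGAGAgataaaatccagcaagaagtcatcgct
CG12535 intron (chrX:3409062-3409122, minus strand): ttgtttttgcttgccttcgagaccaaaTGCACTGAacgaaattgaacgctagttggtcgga
beside the start of PIG-T (chrX:8407297-8407357, plus strand): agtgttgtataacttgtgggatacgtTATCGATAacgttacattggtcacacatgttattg
beside the start of CycT (chr3L:17557804-17557864, plus strand): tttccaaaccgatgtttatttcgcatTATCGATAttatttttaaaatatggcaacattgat
beside the start of unk (chr3R:23157880-23157940, plus strand): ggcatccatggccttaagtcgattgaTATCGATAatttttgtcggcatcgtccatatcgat

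Signal is the authors' enrichment value of each peak, on a scale that the sources used here do not give, and it can be ranked only within a list. The values that chose the members are given as a description. Pooled signal of the members ran from 39.1 to 133, with a median of 114 and quartiles of 101 and 123. The member of highest signal, 132.865 at Eato, stood next to the IDR peak of lowest signal, 132.869 at RhoGAP18B. Just outside the IDR list the first members had 132.86 (Eato), 132.85 (lncRNA:CR45148) and 132.78 (CG1161 and Gdi). Just inside it the last peaks had 132.87 (RhoGAP18B), 132.92 (Clk) and 132.93 (CG11975), so the threshold falls between peaks of nearly the same height. The −log10 of the q-value had a median of 2.9 in members (0.0336 to 3.61), 4.06 in IDR peaks and 0.27 in the other sub-threshold peaks.

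Members made up most of the peaks right below the threshold and then thinned out. Of the 1000 sub-threshold peaks of highest pooled signal 688 were members (68.8%, exact binomial 95% interval 65.8 to 71.7). The share was 38.4% in the second 1000, 16.8% in the third, 6.5% in the fourth and 1.5% in the fifth. Beyond rank 10000 it was 0.214%. The summits of 10549, 5480 and 2884 sub-threshold peaks were covered in 0, 1 and 2 replicates. All intervals here and below cover counting error only.

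**Figure D1:**
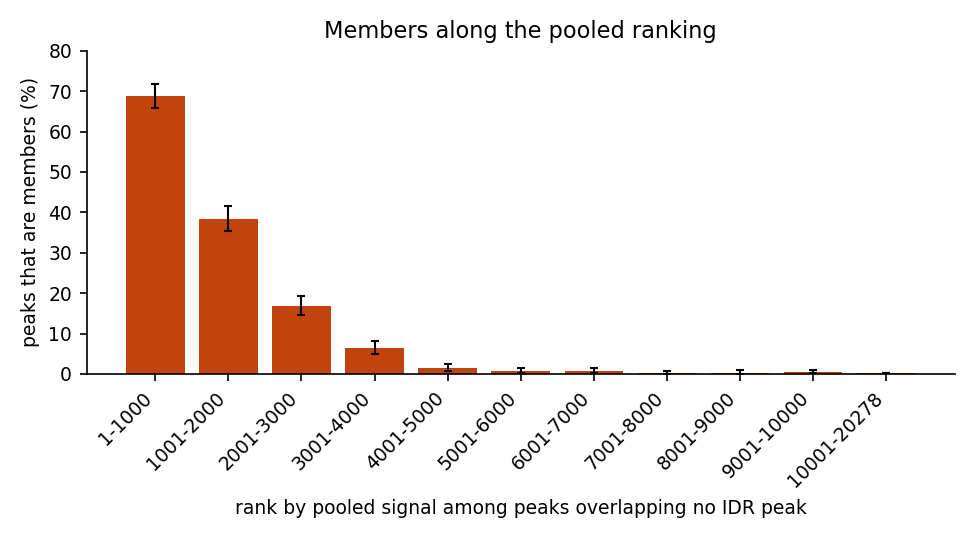
Share of peaks overlapping no IDR peak that are members (vertical axis, percent) by rank of pooled signal (horizontal axis, 1 is the highest); whiskers are exact binomial 95% intervals. The share is 68.8% in the first 1000 and 1.5% in the fifth 1000.

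In each replicate most members sat in the lower part of the kept list, past the rank equal to the number of IDR peaks. Their median rank was 7713 in replicate 1, 7399 in replicate 2 and 7497 in replicate 3, and median signals were 26.8, 42.4 and 40.9 in those lists. Among the 1365 members, 738 were outside the top of every replicate list, down to a rank equal to the number of IDR peaks, 532 were inside it in exactly 1, 92 in exactly 2 and 3 in all 3. The worst of the 3 ranks came from replicate 1 in 484 members, replicate 2 in 420 and replicate 3 in 461, so no replicate alone set the lower end. The worst rank was a median of 1.52 times the best.

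Over the members the Spearman correlation of signal was 0.0216 for replicates 1 and 2, 0.0399 for replicates 1 and 3, and -0.105 for replicates 2 and 3. These are across peaks (n = 1365) within a band of pooled signal that the rule itself narrows, and the rule used these signals, so values near or below 0 are built in and say nothing of how well members repeat. In the 25% of IDR peaks of lowest signal, a band of the same kind, they were -0.254 (n = 1412), -0.0423 (n = 1416) and -0.224 (n = 1425). In 931 members the summits of all 3 covering peaks lay within 100 bp of the pooled summit, and the median shift was 32, 25 and 19 bp in replicates 1, 2 and 3. The rule needs the pooled summit to lie inside the replicate peak, which limits the shift (the highest was 214 bp), and where other sub-threshold peaks were covered their median shifts were 36, 25 and 17 bp.

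**Figure D2:**
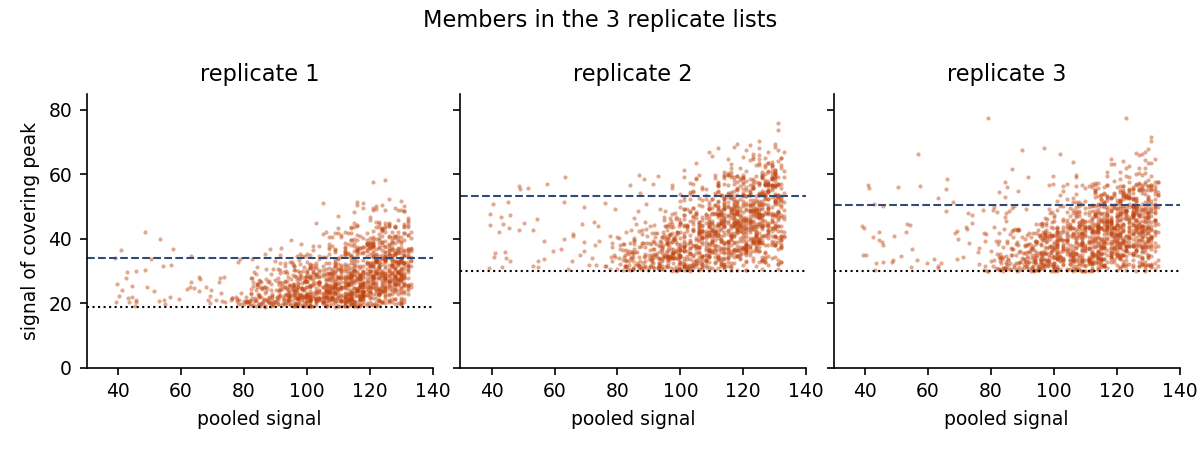
Signal of the replicate peak that covers each member (vertical axis, the authors' scale) against its pooled signal (horizontal axis), 1 panel per replicate and 1 point per member. The dotted line is the lowest signal kept by the rule and the dashed line the signal at the rank equal to the number of IDR peaks; most members lie between them, and 43 have a pooled signal under 70.

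A small tail of members was of another kind. Of the 43 members with a pooled signal under 70, a limit set after their values were seen, 39 overlapped a pooled peak of higher signal and 38 overlapped a member of higher signal. These summits lie on the flank of a stronger pooled peak. Over all members 80 overlapped a stronger pooled peak and 60 a stronger member, which leaves 1305 when overlapping members count once.

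The members with the best worst rank show what a weak peak that all replicates hold looks like. Upstream of CG9663 (FBgn0031516) the member at chr2L:3303042-3303471 had a pooled signal of 127 and replicate signals of 36.7, 57.7 and 56.9, with ranks of 5239, 5252 and 4917. It was among the 3 members inside that top of all 3 replicates, and its summit lay 127 bp upstream of the TSS in intergenic DNA, 433 bp from an IDR peak. The other two members in all 3 tops are the overlapping pair at chr3R:21838425-21838854 and chr3R:21838631-21839060, near the gustatory receptor gene Gr93b. That pair shares its replicate peaks (36.9, 57.1 and 56.4) but has pooled signals of 132 and 57.5, and its summits lie 5125 and 4919 bp from the nearest TSS. The pair is thus 1 region counted as 2 members.

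Gene starts with well repeated members came from several cell functions. At Gdi, whose product recycles Rab GTPases of membrane traffic, the member had its summit 20 bp upstream of the TSS (chr2L:9494681-9495110) with a pooled signal of 133 and replicate signals of 33.2, 51.5 and 54.5. At Kcmf1, a relative of a human ubiquitin ligase, 2 overlapping members of 125 and 103 shared replicate signals of 44.8, 53.8 and 50.1, and both summits lay in the 5' untranslated region. Between CSN3, a subunit of the COP9 signalosome, and its head-to-head neighbour CG11456 the summit lay 132 bp upstream of CSN3, with a pooled signal of 128 and 35.6, 49.6 and 54.2 in the replicates. In these 3 places the ranks lay between 4058 and 6223, an evenness that follows from choosing members by their worst rank. Upstream of Ssu72, a phosphatase of the RNA polymerase II tail, the member had 112 pooled and 31.7, 54.5 and 46.5 in the replicates, 209 bp from the TSS. Tango5, named for a role in Golgi organization, had 131 pooled and 34.9, 57.1 and 47.1 at 290 bp, and CG15822 had 132 pooled with 32.7, 52.6 and 48.1 at 474 bp.

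Away from gene starts the same ranking gave introns and intergenic DNA. In an intron of Fhos, a formin that organizes actin, the member at chr3L:8767963-8768392 had 127 pooled and 32.2, 52.5 and 47.3 in the replicates, and a CACTG word centred 29 bp from its summit. In an intron of Exn it had 129 pooled and 31.9, 56.6 and 57.0, at 2801 bp from the TSS. In an intron of px, a wing vein patterning gene, it had 131 pooled and 36.6, 51.6 and 48.2, 2858 bp from the nearest IDR peak. In an intron of lilli, a transcription elongation factor of the AF4 family, it had 123 pooled and 31.7, 48.6 and 52.7. None of these 4 lay within 1000 bp of an IDR peak. The intergenic member nearest lncRNA:CR45726, 7919 bp from its TSS, had 132 pooled and 35.5, 55.6 and 50.1. A member in the 3' untranslated region of Cam, the calmodulin gene, had 120 pooled and 31.6, 50.8 and 47.1. Near Ids, the gene of a lysosomal sulfatase, the member had 125 pooled and 31.7, 68.0 and 55.4, 223 bp from an IDR peak. Those of the 20 members ranked this way that are not yet named lay nearest to lncRNA:CR44723, lncRNA:CR44817 (in an intron of pigs) and CG15498. Their pooled signals were 121, 125 and 133.

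The members at the upper and lower ends of pooled signal were named for that signal alone. At Eato, an ABC transporter gene, the member had replicate signals of 42.0, 40.7 and 49.7, and at CG1161 it had 36.3, 59.2 and 33.4 with ranks of 5335, 5101 and 9757. At lncRNA:CR45148 the signals were 40.1, 61.0 and 42.0, and at Lrr47 they were 36.7, 42.2 and 57.7. The 5 lowest members had pooled signals from 39.1 to 40.8. They were at msps, a microtubule polymerase (33.9, 30.8 and 44.1 in the replicates), Dys, the dystrophin gene (20.4, 47.7 and 35.0), lncRNA:CR44305 (25.9, 44.3 and 43.4), ND-MNLL, a subunit of respiratory complex I (22.3, 50.7 and 35.0), and hebe (36.4, 34.2 and 56.6). Their replicate signals lay within the range of the other members, whose lower end the rule sets. Overlapping members can share replicate peaks, as the Gr93b pair does, so these values may belong to a stronger neighbour.

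Members lay near gene starts less often than IDR peaks and more often than the bulk of the other sub-threshold peaks. Within 500 bp of an annotated start stood 476 of the 1365 member summits (34.9%, 32.3 to 37.5), against 45.8% (44.5 to 47.1) of IDR summits. The odds ratio was 0.633 (conditional exact 95% interval 0.558 to 0.717; adjusted p = 5.31e-13 by Fisher's exact test, two-sided, over 14 location tests). Against the 25% of IDR peaks of lowest signal, of which 39.7% lay near a TSS, it was 0.812 (adjusted exact p = 0.0224). Against the other sub-threshold peaks, with 24.2%, it was 1.68 (1.49 to 1.89; adjusted exact p = 1.33e-16). Places within 500 bp of a TSS are 13.6% of the genome. These tests take peaks as units, and overlapping peaks and neighbours are not independent, so they describe these lists and not a spread between embryos.

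The higher share than in the other sub-threshold peaks did not hold with a lower limit on signal. With a pooled signal of 100 or more in both sets, 36.0% (33.1 to 39.0) of 1039 members lay near a TSS, against 39.8% (36.5 to 43.2) of 836 other sub-threshold peaks, and the odds ratio turned to 0.85 (adjusted exact p = 0.275). With all members against the same 836 peaks it was 0.809 (adjusted exact p = 0.0707). This signal limit was chosen after the data were seen. Within the members the share was 39.3% in the 455 of highest signal, 32.3% in the middle 455 and 33.0% in the lowest 455. Over 4 equal parts of the IDR peaks, in order of falling signal, it was 58.3, 44.4, 40.9 and 39.7%.

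Peaks that 1 replicate missed differed by which replicate it was. Peaks covered in replicates 1 and 3 but missing from the kept list of replicate 2 numbered 1020, and 51.1% (48.0 to 54.2) of them lay near a TSS. Those missing from replicate 1 numbered 974 with 26.7% (23.9 to 29.6), and those missing from replicate 3 numbered 890 with 31.0% (28.0 to 34.2). Missed here means outside the kept list. The whole list of replicate 2 still covered 470 of the 1020, that of replicate 1 covered 669 of the 974, and that of replicate 3 covered 661 of the 890. The whole list of replicate 2 is also shorter, with 22372 peaks against 30000 in each of the others. The peaks that replicate 2 missed also lay in 5' untranslated regions in 16.5% (14.2 to 18.9), against 4.52% and 4.83% for those that replicates 1 and 3 missed. Their median GC content was 38.8%, against 36.1 and 35.8%. The members hold only what replicate 2 holds too: with replicate 2 left out of the rule there were 2385 members, and their odds ratio for lying near a TSS was 0.849 against IDR peaks (adjusted exact p = 0.00136). Without replicate 1 or 3 it was 0.543 or 0.591. What sets replicate 2 apart was not tested.

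**Figure D3:**
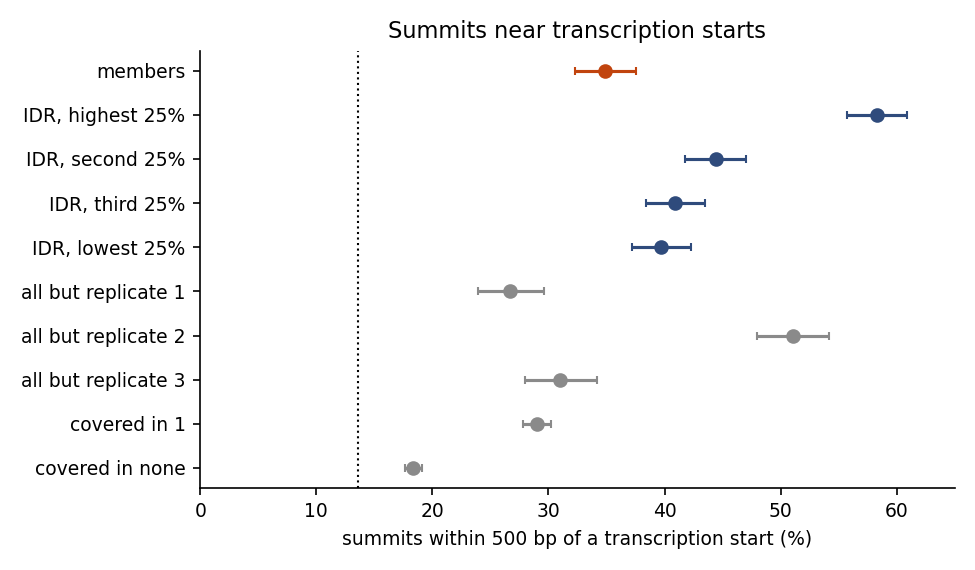
Share of summits within 500 bp of a TSS (horizontal axis, percent) for members, IDR peaks in steps of 25% by pooled signal, and other sub-threshold peaks by which replicates covered them; whiskers are exact binomial 95% intervals and the dotted line is the share of the genome. Members stand at 34.9%, and the peaks that only replicate 2 missed at 51.1%.

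Near a TSS most member summits lay upstream, though fewer than of the IDR peaks. Of the 476 member summits 368 (77.3%, 73.3 to 81.0) lay upstream of the nearest TSS, against 84.1% (82.6 to 85.5) in IDR peaks, 80.2% in the 25% of these with the lowest signal, 60.3% in the other sub-threshold peaks and 79.3% (74.5 to 83.5) in those of signal 100 or more. These shares were not tested. The median offset was -82.5 bp in members, -109 bp in IDR peaks and -39 bp in the other sub-threshold peaks. In members the fullest step of 50 bp was that from 100 to 50 bp upstream, with 18.5% of the near-TSS summits, and in IDR peaks the same step held 19.3%. Members had 8.82% in the first 50 bp downstream, against 4.9% of IDR peaks. Among the 455 members of lowest signal 70.7% of near-TSS summits were upstream, against 80.4% among the 455 of highest signal.

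**Figure D4:**
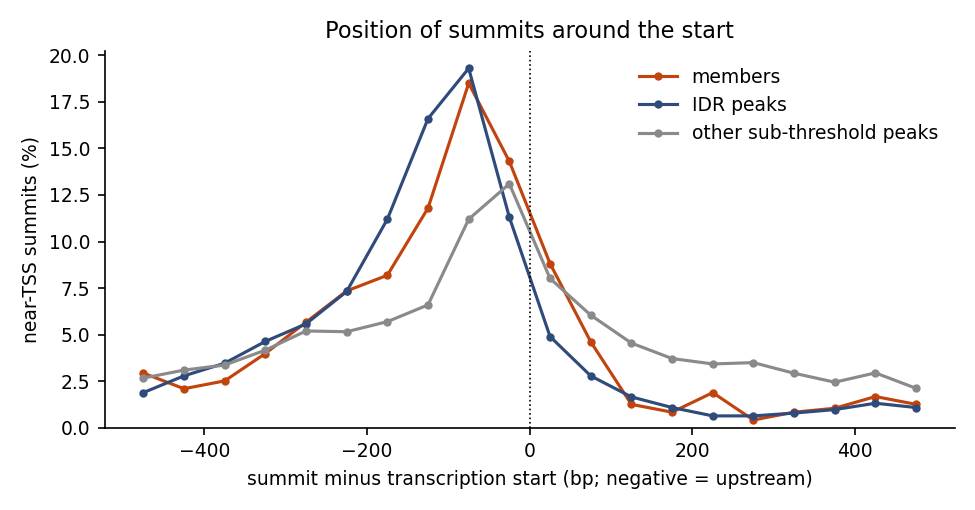
Position of summits around the nearest TSS (horizontal axis, bp, negative is upstream) as a percent of the near-TSS summits of each kind (vertical axis) in steps of 50 bp. Members (476 summits) and IDR peaks (2652) both peak between 100 and 50 bp upstream, at 18.5% and 19.3%, while the other sub-threshold peaks (4576) spread further downstream.

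By annotation class no difference between members and IDR peaks was called, which changed with the replicates used. Summits of members lay in introns in 47.4%, intergenic DNA in 40.9%, 5' untranslated regions in 6.96%, other exons in 2.86% and 3' untranslated regions in 1.9%. In IDR peaks these were 47.5, 42.0, 6.03, 3.06 and 1.42%, and none of the 5 differences passed Fisher's exact test after adjustment (0 of 5 also had an unadjusted p under 0.05). The odds ratios ran from 0.932 to 1.35, and the widest interval, that of 3' untranslated regions, was 0.83 to 2.13. With replicate 2 left out of the rule 4 of 5 were called: the odds ratio against IDR peaks was 1.93 for 5' untranslated regions (adjusted exact p = 1.27e-13), 1.52 for 3' untranslated regions, 0.874 for introns and 0.902 for intergenic DNA. Without replicate 1, 3 of 5 were called, and with whole replicate lists 4 of 5. Against the other sub-threshold peaks 3 of 5 passed. Exons outside untranslated regions held 2.86% of members against 10.1% of those peaks (odds ratio 0.262, 0.184 to 0.361), 3' untranslated regions 1.9% against 3.72% (0.502), and intergenic DNA 40.9% against 30.7% (1.56). With those of signal 100 or more in their place, 0 of the 10 tests of place passed Fisher's exact test, and 0 had an unadjusted p under 0.05. Of these 10, 5 are the tests against IDR peaks above, whose counts this limit does not change.

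Member summits near a TSS were at shared promoters less often than IDR summits. A head-to-head gene started within 500 bp in 26.7% (22.8 to 30.9) of the 476, against 33.7% (31.9 to 35.5) in IDR peaks, an odds ratio of 0.717 (0.571 to 0.895; adjusted Fisher's exact p = 0.00679). The call was lost against the lowest 25% of IDR peaks (31.5%; odds ratio 0.792, adjusted exact p = 0.204) and without members within 1000 bp of an IDR peak (0.785, adjusted p = 0.0829).

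The X chromosome held 294 members (21.5%, 19.4 to 23.8), against 18.1% (17.1 to 19.1) of IDR peaks. The odds ratio was 1.24 (1.07 to 1.44; adjusted Fisher's exact p = 0.00762), but it was 1.05 (adjusted exact p = 0.485) with replicate 2 left out and 1.24 (adjusted p = 0.061) against the lowest 25% of IDR peaks. Members had a density of 12.5 per Mb on X, 10.3 on 2L, 10.1 on 3L, 9.85 on 3R, 8.62 on 2R and 6.68 on chromosome 4, which had 9 members.

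About as many members lay within 5000 bp of an IDR peak as beyond it. The median distance to the nearest IDR peak was 4507 bp in members (quartiles of 1591 and 11546 bp), against 5943 bp in the other sub-threshold peaks and 4965 bp in those of signal 100 or more. Of the 1365 members 213 (15.6%) lay within 1000 bp, against 13.0 and 16.5% of those 2 sets, and 718 (52.6%) within 5000 bp, against 45.3 and 50.1%. These differences were not tested. Among the members themselves the median distance to the nearest other member was 17572 bp, and 212 had another within 2000 bp. Overlapping members are included in these values, which were not compared with random places. Repeat-masked bases made up at least 50% of the window in 3.96% of members, against 4.15% of IDR peaks.

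In base composition the members lay close to the IDR peaks and away from the other sub-threshold peaks. Median GC content of the 201 bases around the summit was 35.3% in members, 33.8% in IDR peaks, 34.3% in the lowest 25% of these and 39.3% in the other sub-threshold peaks. It was 35.8% in those of signal 100 or more. The motif comparisons below stand beside this difference, whose part in them was not tested.

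Of 30 fixed motifs, 6 differed between members and the other sub-threshold peaks (Fisher's exact test, two-sided, adjusted over 60 tests). The DRE, TATCGATA, was in 51 members (3.74%) against 1.72% of the other peaks, an odds ratio of 2.22 (1.61 to 3.01; adjusted exact p = 3.78e-05). The TATA box, TATAAA, was in 36.1% against 27.4% (1.5, 1.33 to 1.68; adjusted exact p = 8.34e-10). Its letters were in 34.9% of members near a TSS and 36.8% elsewhere, so a match need not be a promoter element. In IDR peaks these shares were 38.9 and 38.0%, and in the other peaks 26.5 and 27.7%. This split was not tested. The other 4 of the 6 motifs were lower in members. The GC box, GGGCGG, was in 3.0% against 6.38% (0.455), the CA repeat, CACACACA, in 3.08% against 5.53% (0.542), the CTCF core, AGGNGGC, in 4.54% against 7.09% (0.624), and the Tinman motif, CAAGTG, in 10.1% against 13.6% (0.715). Some of these calls depend on the window: CTCF was not called at 50 bp (adjusted exact p = 0.22), Tinman at 50 and 200 bp (0.0553 and 0.433), and the CA repeat at 200 bp (0.251) or without replicate 2 (0.0581). Against the other sub-threshold peaks of signal 100 or more 0 of 30 passed, with 4 at an unadjusted Fisher p under 0.05, and the odds ratio of the DRE turned to 0.863 (adjusted p = 0.86). With the limit on members too, 0 of 30 passed (3 at an unadjusted Fisher p under 0.05).

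Against IDR peaks 1 of the 30 motifs differed. The homeobox motif, TAATTA, was in 15.8% of members and 19.0% of IDR peaks (odds ratio 0.798, 0.677 to 0.938; adjusted Fisher's exact p = 0.0494), and it was no longer called in 5 of the 10 alternatives run, named in the closing section. With the signal limit on the other peaks alone, its counts were the same and only the joint adjustment changed. The DRE was in 3.74% of members and 3.23% of IDR peaks (1.16, 0.83 to 1.6). The Motif 7 core, CATCNCTA, was in 3.08% and 4.23% (0.718, 0.502 to 1.01), and Motif 1, GGTCACAC, which M1BP binds, was in 2.2% and 1.97% (1.12, 0.718 to 1.69). The remaining motifs searched were the BEAF-32 core CGATA (held within the DRE), the E-box of Motif 5 CAGCTG, the DPE CGGACGT, the GAGA repeat GAGAGAG, the Su(Hw) core TGCATAC, Zelda CAGGTAG, the Pho core GCCATNTT, Grainyhead AACNGGTT, the Twist E-box CATATG, the GATA factor letters GATAAG, Bicoid TAATCC, TTCNNNGAA of STAT, TCF CTTTGATC, Ets CCGGAAG, AP-1 TGANTCA, the HSF pair TTCNNGAA, CREB TGACGTCA, Runt ACCGCA, Ftz-F1 CAAGGTCA, Su(H) GTGGGAA and a run of A, AAAAAAAA. A match is a description of letters and does not show that the factor binds.

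**Figure D5:**
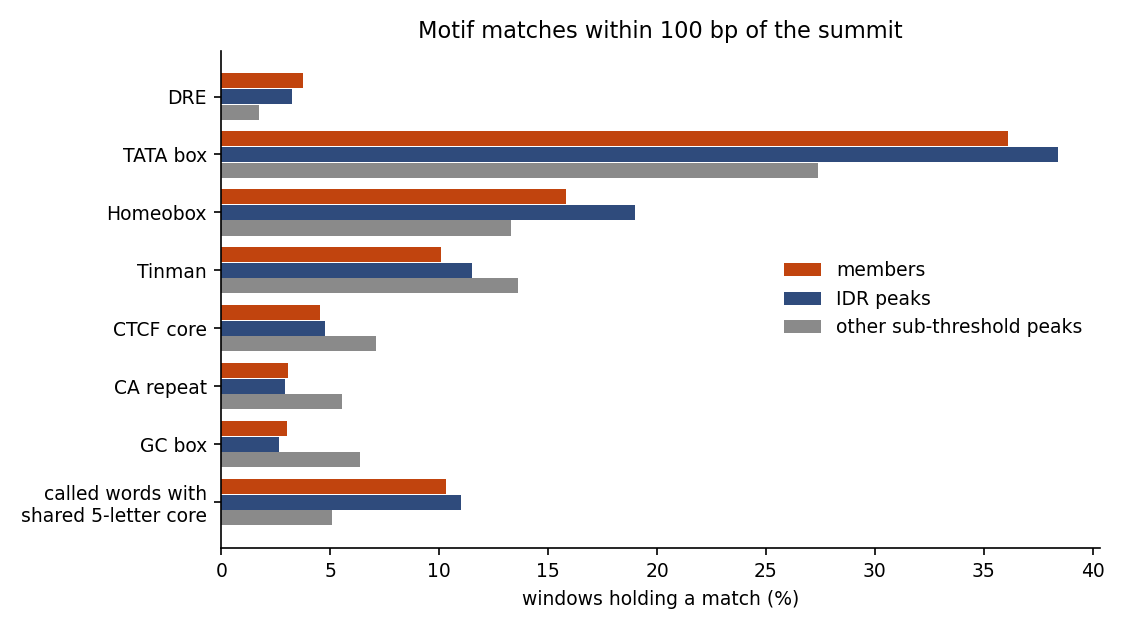
Percent of windows of 100 bp to either side of the summit that hold each motif (horizontal axis), for the 7 fixed motifs that differed in a test and for the 3 CACTG words that passed; bars are members, IDR peaks and other sub-threshold peaks. Members lie nearer to the IDR peaks than to the other peaks in all but the homeobox motif. The motifs and words drawn were picked by the same tests, so this pattern is largely built in.

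Words learned from strong peaks on other arms were also more frequent in members. The 20 words were ranked on 2072 IDR summits against 6753 other sub-threshold summits of 2L and 2R, and were tested in the 904 members and 12160 other sub-threshold peaks of the remaining arms. All 20 were more frequent in members, and 15 passed Fisher's exact test after adjustment. CACTGAGA was in 4.54% of members against 2.22% (odds ratio 2.09, 1.46 to 2.94; adjusted exact p = 0.000243), and 4.5% of IDR peaks held it. CACAGTGG was in 3.32% against 1.77% (1.91, adjusted exact p = 0.00417) and TCAGTGCA in 4.09% against 2.36% (1.77, adjusted p = 0.00464). The fourth word with these letters, CAGTGTAG, was in 1.88% against 1.14% (1.66, adjusted exact p = 0.0699). Words made only of A and T were 13 of the 20, and 9 of them passed, among them TAATATAA (6.19% against 3.23%; 1.98) and ATTTAAAA (11.5% against 6.84%; 1.77). The remaining 3 words, such as CTTAAAAA, passed as well. Against other sub-threshold peaks of signal 100 or more 0 of 20 passed, with 1 at an unadjusted Fisher p under 0.05.

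The CACTG words lay mostly away from gene starts and the DRE mostly near them. At least 1 of the 3 passing CACTG words was in 141 members (10.3%, 8.77 to 12.1), against 11.0% of IDR peaks, 5.07% of the other sub-threshold peaks and 8.37% of those of signal 100 or more. These shares pool all arms, those used for ranking included. The 3 words were kept for being more frequent in members than in the other sub-threshold peaks, so that gap is partly built in. In members within 500 bp of a TSS the share was 4.83% (3.09 to 7.16), and in the other 889 members it was 13.3% (11.1 to 15.7). The same order stood in IDR peaks, 7.28% near a TSS and 14.2% elsewhere, and in the other sub-threshold peaks, 3.15 and 5.68%. The DRE went the other way: 45 of its 51 members lay near a TSS, where it was in 9.45% (6.98 to 12.4) of members against 6.52% of IDR peaks and 5.29% of the other sub-threshold peaks, while elsewhere it was in 0.675% of members, 0.447% of IDR peaks and 0.579% of the others. The split was looked at after the words were found and was not tested. Among the sequences shown first, 7 of the 8 CACTG members lay farther than 500 bp from a TSS.

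The members shown in those sequences were chosen by their worst rank in the replicates, so their replicate signals do not stand for members at large. The hth member, in a gene for a homeodomain partner of Extradenticle, had 122 pooled and 33.7, 45.1 and 53.2 in replicates 1, 2 and 3. In Dif, an NF-kappaB family gene of immunity, the values were 117 pooled and 30.8, 46.3 and 42.7, and in alpha-Man-Ia, a mannosidase gene, 97.4 pooled and 33.4, 56.6 and 44.3. At the DRE promoters, CycT, the cyclin of the elongation factor P-TEFb, had 130 pooled and 27.8, 41.0 and 55.2. PIG-T, of the enzyme that attaches glycolipid anchors, had 110 pooled and 32.2, 41.5 and 43.4, and unk, the RNA-binding protein unkempt, had 132 pooled and 31.5, 40.3 and 50.6.

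Members stood at the promoters of a small share of genes. Of 13945 protein-coding genes 554 (3.97%) had a member summit within 500 bp of a TSS, against 3157 with an IDR summit there. Of the 554 genes 49 (8.84%) also had an IDR summit there, against 22.6% of all protein-coding genes, and 505 had none. The rule keeps members off IDR peaks, so a small overlap is built in. Members were also found near the TSS of 66 noncoding RNA genes (of 3261), 5 tRNA genes (of 290), 1 snoRNA gene (of 269), 1 snRNA gene (of 32) and none of the 99 rRNA genes. No member lay within 500 bp of the az2 TSS.

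The 19 gene lists are read against the 3.97% of all protein-coding genes, with no test. Genes whose symbols did not match the annotation, among them Dl, h, svb and SA, were left out of the lists and their sizes. A count of 0 therefore covers the matched genes only. Of 38 genes of the proteasome, which breaks down ubiquitin-marked proteins, 5 (13.2%, 4.41 to 28.1) had a member at their promoter and 10 had an IDR peak. The ATPase subunit gene Rpt3 had 132 pooled and 25.6, 49.7 and 55.5 in the replicates, the core subunit genes Prosalpha4 130 pooled and 40.4, 60.1 and 43.7, and Prosbeta1 127 pooled and 29.5, 41.1 and 55.6. The other two were Prosalpha5 at 121 and Prosalpha6 at 107. The nearest TSS to the summit counted for Prosalpha6 was that of another gene, Npc1a, 7 bp away. Of 33 aminoacyl-tRNA synthetase genes, which load tRNAs with amino acids, 3 had a member: SerRS-m at 126, AlaRS at 121 and ArgRS-m at 113. Cytosolic ribosomal protein genes had 4 of 86 (RpS30 at 132, RpS2 at 131, RpS14b at 125 and sta at 121), and 59 of the 86 had an IDR peak. Mitochondrial ribosomal protein genes had 3 of 73 (mRpL42 at 133, mRpS29 at 111 and mRpS5 at 94.4), and 37 had an IDR peak.

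The remaining lists held 0 to 2 members each. Polycomb and Trithorax genes, which keep developmental genes off or on, had 2 of 27 (7.41%), Pcl at 118 and pho at 110. Cell cycle and replication genes had 2 of 38 (5.26%), CycD at 127 and E2f2 at 118. Segmentation genes had 1 of 28, ci of the Hedgehog pathway, with 82.4 pooled and 24.4, 31.5 and 41.8 in the replicates. Signalling genes of the Wnt, Notch, BMP and Hippo pathways had 1 of 32, shn at 123, and chemosensory receptors had 1 of 179, Ir60e at 114. The other 10 lists (Hox, neurogenesis, mesoderm and muscle, gut with fat body and trachea, epidermis, cuticle proteins, architectural proteins, nuclear receptors with ecdysone genes, heat shock, and adhesion with axon guidance) had 0.

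Some genes held several members within their bodies. At least 1 member summit lay in 629 protein-coding genes, 2 or more in 134, 3 or more in 42 and 4 or more in 12. These counts were not tested, and members are 6.73% of all pooled peaks that overlap no IDR peak. hth, 132008 bp long, held 7 members beside 6 IDR peaks and 39 other sub-threshold peaks. mew, the alphaPS1 integrin gene, held 6 in 44082 bp, or 13.6 per 100 kb. Beside them stood 6 IDR peaks and 15 other sub-threshold peaks. kirre, an adhesion gene of myoblast fusion, also held 6, but in 394149 bp, or 1.52 per 100 kb. It had 23 IDR peaks and 85 other sub-threshold peaks. CG32264 and SKIP held 5 each, beside 20 and 38 other sub-threshold peaks. By density mew was the highest of these 5 genes and kirre the lowest.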

How the data were processed

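ChIP-seq peak lists of 3 replicates of az2-GFP embryos were used. Per the labels, the authors called a relaxed list per replicate and on the pooled alignments of all 3 against a control alignment, and derived an IDR list; the build is dm6. The tool that called peaks and the IDR cutoff are not given in the sources used here, and the control alignment is not used here. The deposited column 7 is a signal value per peak, the deposited column 9 the −log10 of the q-value, and the deposited column 10 an other kind of value, the offset of the summit in bp. The lists hold no reads, so depth is unknown.

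The members and the lists of genes and motifs were chosen with earlier results of these data known. Peaks overlapped at 1 bp or more, and a summit was covered by the replicate peak of highest signal that held it. TSSs and location classes came from the Ensembl annotation BDGP6.54 release 115, and sequence from the RefSeq genome of the same build, for the main chromosome arms (2L to 3R, X and 4), with coordinates counted from 1. Shares have exact binomial (Clopper-Pearson) 95% intervals. Sets of peaks were set against each other with Fisher's exact test, two-sided, and p-values were adjusted by the Benjamini-Hochberg method, with a call at 0.05, over 14 location tests, 60 motif tests and 20 word tests, with scipy 1.17.1 and statsmodels 0.14.6 in Python 3.11.15; the tests were checked on simulated data. The tests were run on places relative to genes and on letters, and the rule used neither directly. It does keep members off IDR peaks, so a promoter that an IDR peak fills is closed to members. How far this bears on the near-TSS and divergent-promoter tests was not tested.

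The members named were, by rule, the 20 with the best worst rank, the 5 highest and 5 lowest by pooled signal, the 5 with the best worst rank and no TSS within 2000 bp, the 5 genes holding most members, and up to 3 genes per list (the 4th and 5th of a list are named too, having been added after their values were seen). Alternatives were other list lengths, TSS windows, motif windows and word lengths, the IDR peaks of lowest signal, members at least 1000 bp from an IDR peak, the dm3 lists, and each replicate left out. The other sub-threshold peaks of signal 100 or more, the same limit on members too, and overlapping members counted once were added after seeing the data. A DRE member that ranked among those shown is not reported here.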

Additional observations from a re-analysis of the deposited data

How the results depend on the processing

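No paired analysis was possible because there is 1 group. The number of members was 3 with replicate lists as long as the IDR list, which leaves too few to test (under 50, a limit chosen after seeing the data), 5326 with whole lists, and 2255 to 2385 with a replicate left out. The odds ratio for lying near a TSS kept its direction and its call against IDR peaks in all 10 alternatives run (0.494 to 0.849). Against other sub-threshold peaks it did so (1.38 to 2.45) in all but the pair with a signal limit: with those of signal 100 or more it turned to 0.809 (adjusted p = 0.0707), and calls then numbered 0 of 10 for location classes, 0 of 30 for motifs against other peaks (4 at an unadjusted Fisher p under 0.05), 0 of 30 against IDR peaks (1) and 0 of 20 for words (1). There the odds ratios were 0.934 for 5' untranslated regions, 1.06 for 3' untranslated regions, 1.06 for introns, 0.989 for intergenic DNA and 0.863 for the DRE. A limit on the other peaks alone leaves the tests against IDR peaks with the same counts and unadjusted p-values. The homeobox odds ratio stayed at 0.798 there, and only the joint adjustment moved its call (adjusted Fisher's exact p = 0.173). With that limit on members as well the near-TSS value was 0.85, calls were again 0 of 10, 0 of 30, 0 of 30 and 0 of 20 (0, 3, 2 and 1 at an unadjusted Fisher p under 0.05), and against other peaks the odds ratios were 0.916 for 5' untranslated regions, 1.18 for 3' untranslated regions, 1.04 for introns and 0.821 for the DRE. The cause was not tested.

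The divergent-promoter odds ratio lost its call at 1000 bp or more from an IDR peak (0.785) and against the 25% of IDR peaks of lowest signal (0.792). That of X lost it against that 25% (1.24) and without replicate 2, ranging from 1.05 to 1.27 with a replicate left out. The upstream share was 70.3% in a TSS window of 1000 bp. Calls of location classes, 3 of 10, became 8 with whole lists and 3 to 9 with a replicate left out; those against IDR peaks, 0 of 5, became 4 with whole lists and without replicate 2, and 3 without replicate 1. Motif calls against other peaks, 6, became 11 with whole lists, 9 to 11 with a replicate left out, 4 with a motif window of 50 bp and 7 with one of 200 bp. Motif calls against IDR peaks, 1, became 6 with whole lists, 2 to 6 with a replicate left out, 3 with a motif window of 200 bp, and 0 with a window of 50 bp, at 1000 bp or more from an IDR peak, and against the 25% of IDR peaks of lowest signal (3, 1 and 0 of 30 at an unadjusted Fisher p under 0.05).

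Class odds ratios near 1 changed sides. With whole lists 5' untranslated regions gave 0.99 and introns 1.07 against other peaks, and exons 1.4 and introns 1.11 against IDR peaks; intergenic DNA gave 1.03 against IDR peaks at 1000 bp or more from one. With a replicate left out, 5' untranslated regions ranged from 0.984 to 1.93 and 0.901 to 1.98 against IDR and other peaks, introns from 0.874 to 1.11 and 0.805 to 1.06, and exons from 1.04 to 1.11 against IDR peaks. Counting overlapping members once left 1305 members. The unknown depth, and the control alignment and untagged embryos not being used here, limit what a weak peak can be taken to show.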
